A study of Homo sapiens with 28 samples.

Results

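MDA-MB-231 is an established line from triple-negative human breast cancer, and 2 derivatives of it were compared after 1 day in suspension on ultra-low attachment plates. The control line (EV) carried an empty vector, and the other line overexpressed tropomyosin 2.1 (Tpm2.1), a high molecular weight tropomyosin encoded by TPM2. Both were grown in medium with serum and puromycin. Suspended Tpm2.1 cells had been divided with Annexin V beads, which capture cells that expose phosphatidylserine, and the non-apoptotic fraction was compared here. No such separation is stated for EV cells. Of 28 libraries in the series 4 belong to the comparison, chosen by their labels: EV replicates 1 and 2, and non-apoptotic Tpm2.1 replicates 1 and 2. The attached cells of both lines (6 hours on culture plates, unseparated), the suspended cells at 5 hours and 2 days (EV unseparated, Tpm2.1 non-apoptotic) and the apoptotic Tpm2.1 fraction at 1 day were used as points of reference, with 2 libraries each. With a single EV line and a single Tpm2.1 line, the overexpression, any other difference between the lines and the separation step cannot be told apart. The labels speak of biological replicates but not of how their cultures were kept apart. The p-values thus measure only the spread between replicate libraries, estimated over all 28 in the series, which may be technical.

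Epithelial cells that lose contact with matrix tend to undergo anoikis, a form of apoptosis. Many carcinoma cells survive detachment, and loss of high molecular weight tropomyosins such as Tpm2.1 is common in transformed cells. Tropomyosins wind along actin filaments and set which myosins and other actin-binding proteins can use them. Survival without matrix also draws on AKT signalling, on receptors such as EphA2, on contacts between cells, on BCL2-family proteins and on inflammatory and stress pathways, and the genes below are grouped by these roles.

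The EV libraries held 13671309 and 20278090 counts, and the non-apoptotic Tpm2.1 libraries 14737386 and 19523273, within a range of 13043529 to 27416335 over the series. Levels are given as CPM, the usual scaling of counts to library size, and differences as log2 fold changes, Tpm2.1 minus EV. Each standard error (SE) was derived from the F statistic of edgeR, and p-values were adjusted by Benjamini-Hochberg over the 17191 genes tested. A gene passed at an adjusted p under 0.05. In all, 6880 genes (40.0%) passed, of which 3393 (19.7% of those tested) were higher with Tpm2.1 and 3487 (20.3%) were lower. Of all genes tested, 1397 (8.13%) passed and were past 2-fold, 632 of them higher and 765 lower, and the median over all genes tested was -0.02. The shares of 19.7% higher and 20.3% lower are the background for each list count at 1 day below. Lists and their members were chosen with earlier results of these data known. A list's share or median apart from that of all genes can thus partly follow from that choice. As markers of the line, VIM, the mesenchymal filament vimentin, stood at 765 and 766 CPM in EV and at 822 and 801 in Tpm2.1 cells, and CDH1, the epithelial E-cadherin, had 0 counts in all 4 libraries. CDH2, N-cadherin, had 1 to 4 counts and was not tested.

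TPM2 itself was higher in Tpm2.1 cells, as the labels state. TPM2 (ENSG00000198467, hg38 chromosome 9, 35681992 to 35690121) stood at 46.1 and 45.1 CPM in the EV libraries and at 4655 and 5265 CPM in the non-apoptotic Tpm2.1 libraries, higher by 6.77 ± 0.095 on the log2 scale (SE, adjusted p = 3.57e-37). The apoptotic fraction at the same time averaged 3777 CPM. Counts are summed over a gene's transcripts, so Tpm2.1 was not separated from other TPM2 products. In libraries made from many cells, here as for every gene below, fewer cells that express a gene and less of its RNA per cell cannot be told apart.

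The other tropomyosin genes differed little. TPM4, which encodes a short cytoskeletal tropomyosin, stood at 642 and 649 CPM in EV and 764 and 765 with Tpm2.1, a difference of 0.24. TPM1, the source of other high molecular weight forms, differed by -0.22, a call that was lost without non-apoptotic Tpm2.1 replicate 1, and TPM3 by 0.08 (adjusted p above the threshold). On the length-scaled FPKM scale, which allows levels of different genes to be compared, TPM2 was at 13.6 ± 0.27 in EV cells against 72.7 ± 0.283 for TPM4, 37.8 ± 0.0553 for TPM3 and 4.91 ± 0.045 for TPM1 (SD, n = 2). In non-apoptotic Tpm2.1 cells TPM2 was at 1494 ± 123 FPKM and TPM4 at 86.6 ± 0.301, so the order of these genes changed and TPM2 led by more than the spread between libraries.

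**Figure D1:**
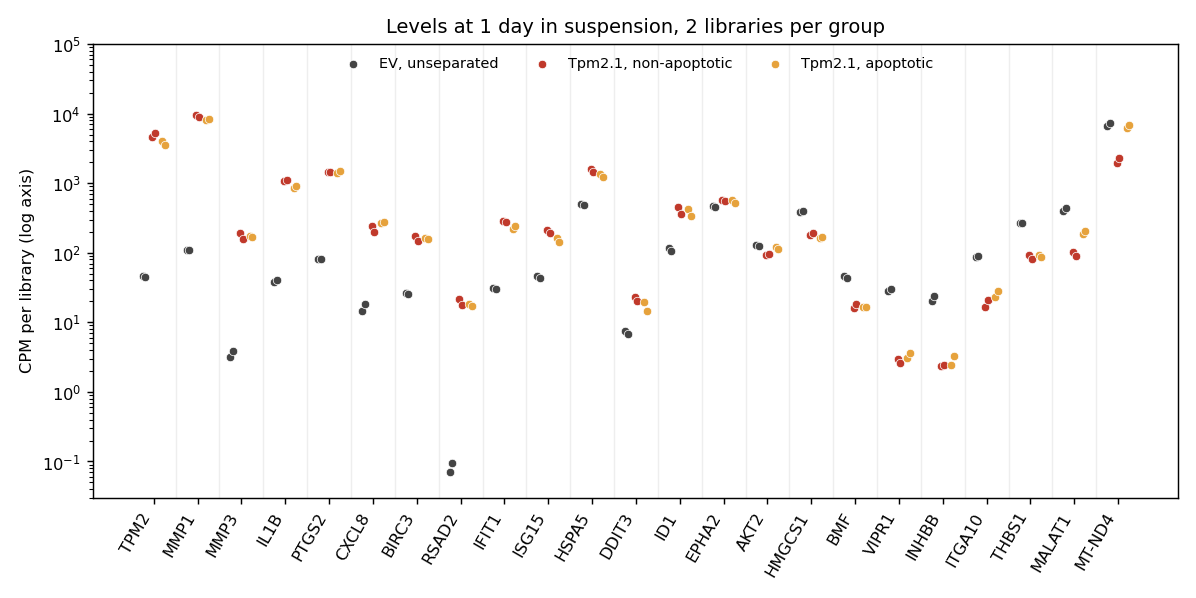
CPM of each library at 1 day in suspension (log axis) for 23 genes, with 2 points per group: EV (unseparated), non-apoptotic Tpm2.1 and apoptotic Tpm2.1 cells. Both Tpm2.1 fractions lie close together and apart from EV for most genes shown, while MT-ND4 in the apoptotic fraction (mean 6503 CPM) lies near EV (6576 and 7292) and above the non-apoptotic libraries (1945 and 2297).

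Inflammatory genes made up the group with the highest median difference of the 43 lists examined. The rank of this list can partly follow from how lists and members were chosen, with earlier results of these data known. Of 27 members tested of an NF-kB and inflammatory list 24 were higher and 1 was lower in Tpm2.1 cells, against 19.7% of all genes higher, and the list's median was 1.99 against -0.02 over all genes. IL1B (ENSG00000125538, chromosome 2, 112829751 to 112836903), the cytokine interleukin 1 beta, stood at 37.9 and 40.2 CPM in EV and 1079 and 1102 CPM with Tpm2.1, a difference of 4.80 ± 0.089 (SE, adjusted p = 5e-33). PTGS2, the inducible cyclooxygenase that makes prostaglandins, was at 80.31 and 80.01 CPM in EV and 1467 and 1424 CPM with Tpm2.1 (4.17 ± 0.12). For both genes the groups lay far apart, and the apoptotic fraction averaged 889 and 1445 CPM.

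Neutrophil-attracting chemokines of the cluster on chromosome 4 shared the direction. CXCL8, interleukin 8, stood at 14.7 and 18.2 CPM in EV and 239 and 201 CPM with Tpm2.1, a difference of 3.72 ± 0.13. CXCL1 was higher by 3.65 and CXCL3 by 3.57, genes of similar sequence whose reads may be hard to assign. CXCL10, an interferon-induced chemokine of the same chromosome, stood at 0.56 and 0.333 CPM in EV and 8.73 and 10.3 CPM with Tpm2.1.

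Cytokines and feedback regulators of the pathway were also higher. IL6 differed by 3.25, IL1A by 1.99, the granulocyte growth factor CSF3 by 1.79 and CSF2 by 1.26. TNFAIP3, which encodes the deubiquitinase A20 that restrains NF-kB, was higher by 1.81, and the non-canonical subunits RELB and NFKB2 by 1.14 and 0.77. The canonical subunit NFKB1 and the inhibitor NFKBIA differed less, by 0.31 and 0.47. The lower gene was CCL2, a monocyte chemokine, at 3.5 and 2.91 CPM in EV and 0.591 and 0.296 CPM with Tpm2.1. LIF, a cytokine of the interleukin 6 family, differed by 0.10 and did not pass. Giving both Tpm2.1 fractions equal weight in place of the non-apoptotic one, 26 members were higher and 1 lower.

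A site bound by NF-kB was searched in the 250 bases upstream of the start sites in RefSeq promoters (GRCh38.p14), which were matched by symbol for 11147 of the genes tested. The letters GGNNTTTCC, on either strand, were present for 16 of 21 matched members of the inflammatory list (76.2%) and for 7.96% of all matched genes. These letters can overlap those used for interferon-stimulated genes below. The upstream stretches of 3 members with large differences are shown with the match in capitals, read in the direction of the gene: CXCL8 at chr4:73740448-73740516 (plus strand), CXCL10 at chr4:76023635-76023703 and CXCL11 at chr4:76036107-76036175 (both minus strand).
CXCL8: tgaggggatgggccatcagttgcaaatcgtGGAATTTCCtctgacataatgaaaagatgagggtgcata
CXCL10: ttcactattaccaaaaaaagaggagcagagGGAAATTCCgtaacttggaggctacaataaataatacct
CXCL11: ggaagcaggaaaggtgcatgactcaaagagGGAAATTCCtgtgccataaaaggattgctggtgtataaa
The match in the CXCL8 stretch is on the gene's strand, and in both other stretches on the opposite strand, where the searched letters read as GGAAANNCC. A match is a description of the letters only, and binding was not measured. Members were chosen as genes of the named pathway, so a share above that of all genes can follow from that choice alone. It says nothing of activity in these cells, and the same holds for the elements searched for the lists below.

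Secreted proteases were among the genes that lay farthest apart. MMP1 (ENSG00000196611, chromosome 11, 102789920 to 102798160), the interstitial collagenase, stood at 110 and 109 CPM in EV and 9574 and 8840 CPM with Tpm2.1, a difference of 6.40 ± 0.088 (SE, adjusted p = 3.06e-37). MMP3, stromelysin 1, was at 3.22 and 3.9 CPM in EV and 190 and 160 CPM with Tpm2.1 (5.59 ± 0.15). MMP10 and MMP13, of the same gene cluster, were at most 0.91 CPM in EV libraries and were higher by 2.821 and 2.996. The apoptosis inhibitors BIRC3 and BIRC2, also on chromosome 11, were higher by 2.64 and 1.43.

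Of 19 protease and inhibitor genes tested 13 were higher and 5 lower, with a median of 0.76. SERPINB2, an inhibitor of plasminogen activators, was higher by 4.11 and the urokinase receptor PLAUR by 1.23. TFPI2, an inhibitor of serine proteases deposited in matrix, was higher by 2.17. The inhibitors of matrix metalloproteinases divided: TIMP1 stood at 364 and 359 CPM in EV and 938 and 813 with Tpm2.1 (1.27), whereas TIMP3 was at 384 and 384 CPM in EV and 196 and 200 CPM with Tpm2.1 (-0.96) and TIMP2 differed by -0.61. WTAPP1, a pseudogene transcript that overlaps MMP1, MMP3 and MMP10 on the opposite strand, had 5 counts in all in EV and stood at 5.84 and 5.17 CPM in Tpm2.1 cells. The strand setting of the counting is not known, so its reads cannot be told apart from theirs, and the same holds for JUNB with HOOK2, DNAJB1 with TECR, TSC2 with PKD1 and SPNS2 with MYBBP1A.

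Interferon-stimulated genes were mostly higher. Of 36 tested 24 were higher and 5 lower, with a median of 0.73. RSAD2, the antiviral enzyme viperin, had 3 counts in all in EV libraries and 699 in Tpm2.1 libraries, a ratio of 231 with an exact 95% counting interval of 78.7 to 1120. OASL, an oligoadenylate synthetase-like protein, was at 9.87 and 9.86 CPM in EV and 131 and 128 CPM with Tpm2.1 (3.72 ± 0.092, adjusted p = 1.18e-28). ISG15, a ubiquitin-like modifier, was at 45.6 and 43.4 CPM in EV and 214 and 193 CPM with Tpm2.1.

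The IFIT genes, which encode proteins that bind foreign RNA, lie next to each other on chromosome 10 and did not all differ. IFIT1 stood at 31.1 and 29.9 CPM in EV and 288 and 280 CPM with Tpm2.1 (3.22 ± 0.11), IFIT2 was higher by 3.32 and IFIT3 by 2.34. IFIT5 was at 49.9 and 48.6 CPM in EV and 54.4 and 45.1 CPM with Tpm2.1, and these libraries overlapped. LIPA lies across IFIT1, IFIT2 and IFIT3 on the other strand and averaged 142 CPM in EV and 103 CPM with Tpm2.1. The lower genes included BST2, the membrane tether tetherin (-0.72), STAT2, a subunit of the interferon-activated transcription factor (-0.53), and XAF1, a partner of XIAP (-1.82). SAMD9L was lower by 0.30, a call that was lost without EV replicate 2 and without either non-apoptotic Tpm2.1 library. The number lower was 3 without EV replicate 2 and 3 without non-apoptotic Tpm2.1 replicate 1.

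The interferon-stimulated response element core, TTTC and TTTC parted by any 2 bases, on either strand, was present upstream of 19 of 28 matched members (67.9%) and of 3.61% of all matched genes. Of the members that passed, it was present for 15 of 18 higher genes and 2 of 5 lower genes. Stretches of 3 of the higher genes are shown with the matches in capitals, all on the plus strand: RSAD2 at chr2:6877602-6877671, IFIT1 at chr10:89392477-89392559 and IFIT3 at chr10:89327811-89327914.
RSAD2: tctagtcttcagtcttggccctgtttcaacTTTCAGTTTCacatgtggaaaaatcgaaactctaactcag
IFIT1: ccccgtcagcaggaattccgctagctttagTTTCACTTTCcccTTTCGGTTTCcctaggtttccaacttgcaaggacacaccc
IFIT3: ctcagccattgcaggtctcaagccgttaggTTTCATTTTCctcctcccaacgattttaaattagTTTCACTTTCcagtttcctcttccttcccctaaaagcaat
The IFIT stretches each hold 2 copies and the RSAD2 stretch 1.

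Antigen presentation genes of class I gave 6 higher and 2 lower of 12, the latter 1 without EV replicate 2 or without non-apoptotic Tpm2.1 replicate 2. HLA-B, HLA-E and HLA-C were higher by 0.67, 0.52 and 0.52, although reads of these near-identical genes can be split between them. NLRC5, the transactivator of class I genes, was at 48.5 and 52.0 CPM in EV and 23.2 and 24.9 CPM with Tpm2.1 (-1.06).

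**Figure D2:**
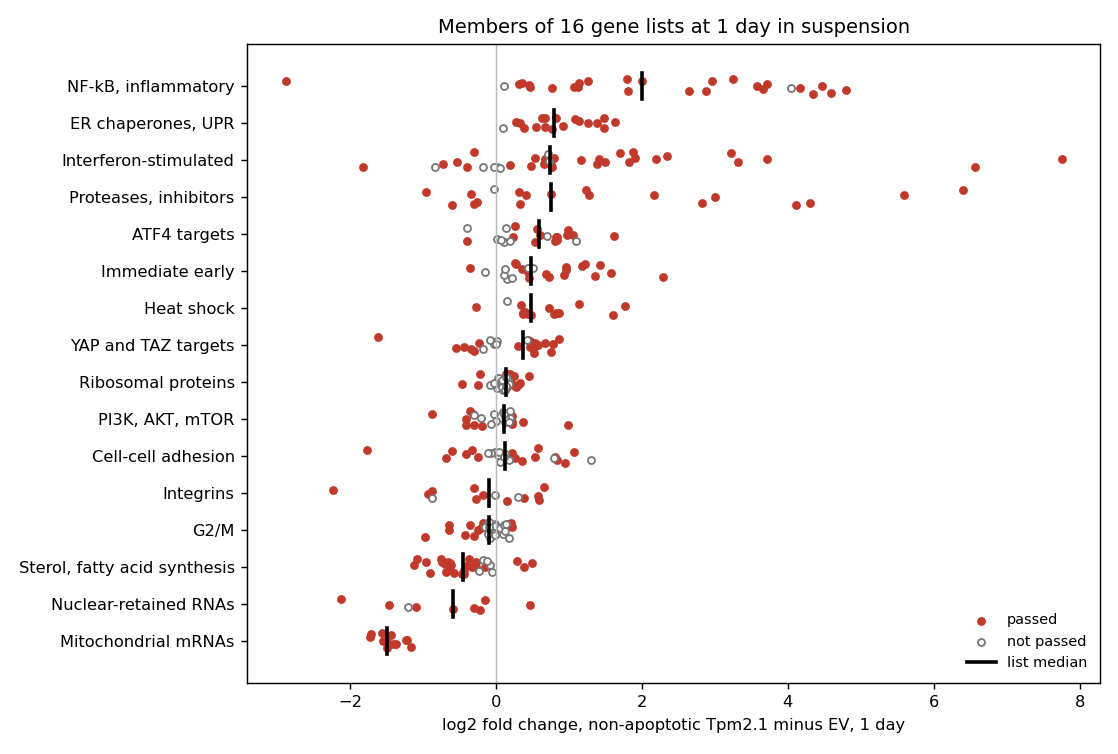
Log2 fold change at 1 day, non-apoptotic Tpm2.1 minus EV, for each tested member of 16 gene lists. Filled points passed at an adjusted p under 0.05, open points did not, and black bars are list medians, which run from -1.49 for mitochondrial mRNAs to 1.99 for inflammatory genes.

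Genes of the unfolded protein response of the endoplasmic reticulum were higher almost throughout: 17 of 18 tested passed as higher and 0 as lower, with a median of 0.79. HSPA5 (ENSG00000044574, chromosome 9, 125234853 to 125241330), the chaperone BiP, stood at 502 and 486 CPM in EV and 1610 and 1438 CPM with Tpm2.1, a difference of 1.63 ± 0.069 (SE, adjusted p = 4.22e-21). The co-chaperones and folding factors HYOU1, SDF2L1, MANF and PDIA4 were higher by 1.39, 1.48, 1.25 and 0.91. HERPUD1, which serves degradation of misfolded proteins, and XBP1, a transcription factor of the response, were higher by 1.48 and 1.14. The remaining member, EDEM1, was at 209 and 214 CPM in EV and 226 and 226 with Tpm2.1 and did not pass.

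The endoplasmic reticulum stress element, CCAAT and CCACG parted by any 9 bases, was present on either strand upstream of 6 of 18 members (33.3%) and of 0.144% of all matched genes (16 genes). The stretches of 3 members, all on the minus strand, are shown with the element in capitals: HSPA5 at chr9:125241361-125241439, XBP1 at chr22:28800573-28800651 and PDIA6 at chr2:10812823-10812901.
HSPA5: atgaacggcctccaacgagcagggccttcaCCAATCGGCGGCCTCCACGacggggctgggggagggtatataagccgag
XBP1: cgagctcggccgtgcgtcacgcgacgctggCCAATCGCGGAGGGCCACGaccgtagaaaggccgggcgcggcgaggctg
PDIA6: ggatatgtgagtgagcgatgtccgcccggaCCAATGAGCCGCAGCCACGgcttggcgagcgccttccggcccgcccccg

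Targets of ATF4, the transcription factor of the integrated stress response, gave 13 higher and 1 lower of 22 (median 0.59). DDIT3, which encodes the pro-apoptotic factor CHOP, stood at 7.42 and 6.86 CPM in EV and 23.4 and 20.4 CPM with Tpm2.1 (1.62). It overlaps MARS on the opposite strand, at 123 CPM in EV and 167 CPM with Tpm2.1 on average. ATF4 differed by 0.84, PPP1R15A, which restores translation, by 0.83 and the amino acid transporter chain SLC3A2 by 0.99. The lower gene was SLC7A11, the cystine transporter (-0.41).

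Heat shock genes gave 13 higher and 1 lower of 15 (median 0.47). HSPA1B and HSPA1A, near-identical copies of inducible HSP70 whose reads may be split, were higher by 1.602 and 1.762, and DNAJB1, their co-chaperone, by 1.13. HSPA8 was at 1831 and 1898 CPM in EV and 3579 and 3210 CPM with Tpm2.1 and HSP90AA1 at 1760 and 1797 CPM in EV and 3222 and 2918 CPM with Tpm2.1. HSPH1 was lower by 0.28. The inducible genes were the less even ones between libraries, with HSPA1A at 84.8 CPM in the first and 48 CPM in the second non-apoptotic Tpm2.1 library.

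Genes of sterol and fatty acid synthesis were mostly lower. Of 32 tested 24 were lower and 3 higher, against 20.3% of all genes lower, with a median of -0.45. HMGCS1, an early enzyme of sterol synthesis, stood at 382 and 395 CPM in EV and 177 and 190 CPM with Tpm2.1 (-1.08 ± 0.099, adjusted p = 1.71e-11). LSS, lanosterol synthase, was at 310 and 305 CPM in EV and 157 and 172 CPM with Tpm2.1. FASN, SCD and ACLY, enzymes of fatty acid synthesis, differed by -0.57, -0.66 and -0.69. The higher genes included SC5D (0.38) and PMVK (0.49), of which SC5D was lost without non-apoptotic Tpm2.1 replicate 1 and PMVK without EV replicate 2. In a test against a fold change of 1.5, 4 members were lower and 0 higher, beside 499 lower and 535 higher of all 17191 genes tested. The letters of a sterol regulatory element, TCACNCCAC, were present on either strand upstream of 1 of 25 matched members (4.0%) and of 1.21% of all matched genes.

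The genes named in the study's title differed by small amounts. EPHA2 (ENSG00000142627, chromosome 1, 16124337 to 16156087), a receptor for ephrin A ligands, stood at 463 and 452 CPM in EV and 570 and 559 CPM with Tpm2.1, a difference of 0.30 ± 0.052 (SE, adjusted p = 8.49e-06). Its line difference was 0.68 at 5 hours and -0.23 at 2 days, so the sign did not hold. The change from 5 hours to 1 day was -0.38 and that from 1 day to 2 days -0.53, and both passed. AKT1 stood at 157 and 154 CPM in EV and 149 and 159 CPM with Tpm2.1, which overlapped (-0.01 ± 0.067, adjusted p = 0.94). AKT2 was at 128 and 125 CPM in EV and 93.1 and 97.2 CPM with Tpm2.1 (-0.41 ± 0.065, adjusted p = 2.85e-06). RNA levels say nothing of phosphorylation, through which both proteins act.

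Of 16 Eph and ephrin genes tested 5 were higher and 3 lower, the latter near the share of all genes (19.7% higher, 20.3% lower). EPHA7 was at most 0.143 CPM in EV and 3.28 and 2.61 CPM with Tpm2.1, and the ligand EFNA5 was lower by 0.60. Of 26 genes of the PI3K, AKT and mTOR pathway 7 were higher and 7 lower, against the same shares of all genes. Among them SGK1, a kinase related to AKT, was higher by 0.99, and the negative regulators INPP4B and TSC2 differed by -0.88 and -0.42. Without EV replicate 1 and without EV replicate 2 the number higher was 3 and 4.

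Genes of the apoptotic machinery included members that were higher and members that were lower. BMF (ENSG00000104081, chromosome 15, 40087890 to 40108892), a BH3-only gene linked to detachment, stood at 46.1 and 43.1 CPM in EV and 16.2 and 18.1 CPM with Tpm2.1 (-1.37 ± 0.09, adjusted p = 2.72e-15). PMAIP1, the BH3-only gene NOXA, went the other way, at 29.97 and 31.57 CPM in EV and 106 and 98.9 CPM with Tpm2.1 (1.73 ± 0.082). BID was higher by 0.92 and BBC3, PUMA, by 0.59, of which BBC3 was lost without EV replicate 2. Of 7 BH3-only genes tested 3 were higher and 1 lower, against 19.7% of all genes higher and 20.3% lower.

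Of 8 survival and effector members of the BCL2 family 3 were higher and 0 lower. MCL1, a short-lived survival protein, stood at 324 and 325 CPM in EV and 539 and 573 CPM with Tpm2.1 (0.78), BCL2A1 was higher by 2.46 and the effector BAK1 by 0.26. BCL2L1, which encodes BCL-XL, was at 170 and 173 CPM in EV and 166 and 165 CPM with Tpm2.1 and did not pass. Of 11 death receptor genes 6 were higher and 3 lower, with the decoy receptor TNFRSF10D at 1.00 and the death receptor TNFRSF10B at 0.35. Of 16 caspases and their inhibitors 6 were higher and 3 lower, the latter near the share of all genes, with CASP4 at 0.86 beside BIRC3 and BIRC2. Without EV replicate 2 a single gene was lower in each of these groups, and without EV replicate 1 a single caspase or inhibitor. Of 10 genes of phosphatidylserine exposure, the property used for the separation, 1 passed as higher, and 0 did so without EV replicate 1 or without non-apoptotic Tpm2.1 replicate 1.

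Of 14 integrins tested 5 were higher and 6 lower, against 19.7% and 20.3% of all genes, with 3 higher without EV replicate 1 or without non-apoptotic Tpm2.1 replicate 1. ITGA10, a collagen-binding chain, stood at 87.4 and 90.4 CPM in EV and 16.4 and 21.1 CPM with Tpm2.1 (-2.23 ± 0.13). ITGB4, the laminin-binding chain of hemidesmosomes, was lower by 0.94, whereas the collagen-binding ITGA2 and ITGA1 were higher by 0.59 and 0.66. PELO overlaps ITGA1 on the same strand and averaged 67.5 CPM in EV and 103 CPM with Tpm2.1. Reads of PELO and ITGA1 may thus be hard to tell apart.

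Of 27 cell-cell adhesion genes tested 10 were higher and 6 lower, the latter a share near that of all genes (20.3%). JUP, plakoglobin of desmosomes and adherens junctions, was at 65.9 and 73.0 CPM in EV and 20.1 and 20.8 CPM with Tpm2.1 (-1.77 ± 0.12), and PKP3, another desmosomal plaque protein, was lower by 0.60. DSG2, a desmosomal cadherin, was higher by 0.35, ICAM1, which binds leukocyte integrins, by 1.07 and NECTIN1 by 0.81. Targets of YAP and TAZ gave 12 higher and 6 lower of 24. The targets CTGF and CYR61 were higher by 0.53 and 0.46 and THBS1, thrombospondin 1, was at 266 and 271 CPM in EV and 93.6 and 81.1 CPM with Tpm2.1 (-1.62). Of 35 actin and focal adhesion genes 11 were higher and 7 lower, the latter again near the share of all genes, with the actin crosslinker ACTN1 at 0.48 on one side and TNS3 at -0.91 on the other. With both fractions at equal weight this list gave 7 higher and 11 lower.

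Of 11 EGF-family ligands and receptors 5 were higher and 2 lower. HBEGF, a membrane-anchored ligand, stood at 26.1 and 29.7 CPM in EV and 99.2 and 96.3 CPM with Tpm2.1 (1.80), the ligand EREG was higher by 1.65 and the receptor EGFR by 0.63, while TGFA was lower by 0.63. Immediate early genes gave 16 higher and 1 lower of 24, with JUNB at 1.18, EGR1 at 1.22 and MYC at 0.95. The lower gene was JUND, which did not pass after a GC correction. CDKN1A, the cyclin-dependent kinase inhibitor p21, was at 93.2 and 90.8 CPM in EV and 214 and 204 CPM with Tpm2.1. Of 30 mitotic genes 9 were lower and 3 higher, with TOP2A at 601 and 582 CPM in EV and 277 and 322 CPM with Tpm2.1 (-0.98). Of 31 genes of G1/S and replication 8 were lower and 5 higher, both near the shares of all genes (20.3% and 19.7%), with CCND1 at -0.52, and CCND2 was at most 0.35 CPM in EV and 5.98 and 7.2 CPM with Tpm2.1. With both fractions at equal weight 0 mitotic genes were higher and 17 lower, and 15 genes of G1/S and replication were lower. The number higher fell to 1 for mitotic genes without EV replicate 2, and to 3 for G1/S without either EV library or without non-apoptotic Tpm2.1 replicate 1.

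The genes with the largest differences were partly of the groups above. The 12 highest protein-coding genes with at least 10 CPM in a group included SPP1, the secreted phosphoprotein osteopontin (1.96 and 1.05 CPM in EV, 74.2 and 72.1 CPM with Tpm2.1), TIE1, a receptor-like kinase (5.04), and NLRP2 (5.04). ESM1, a secreted proteoglycan, stood at 0.14 and 0.191 CPM in EV (6 counts in all) and 12.9 and 11.8 CPM with Tpm2.1, and CH25H, an oxysterol-forming hydroxylase, at 0.07 and 0.429 CPM in EV (10 counts in all) and 9.91 and 11.6 CPM with Tpm2.1. The 12 lowest were led by VIPR1, a receptor for vasoactive intestinal peptide, at 28.6 and 30.3 CPM in EV and 2.96 and 2.56 CPM with Tpm2.1 (-3.43 ± 0.2, adjusted p = 8.99e-17). INHBB, the activin beta B chain, followed at -3.19, SPNS2, an exporter of sphingosine-1-phosphate, at -3.07, OLFML2A at -2.55, LFNG, which modifies Notch receptors, at -2.47 and RGS4 at -2.38. No gene had at least 5 CPM in EV and at most 0.5 CPM with Tpm2.1, while 15 genes had the reverse, among them ADGRL3, SLPI and PI3.

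TIE1 and ESM1 are also known from endothelial cells, and markers of other cell types were examined beside them. Of 10 endothelial markers 7 were tested, 4 of them higher (TIE1, KDR, ESAM and ROBO4) and 1 lower (PECAM1), with summed levels of 189 and 187 CPM in EV and 383 and 375 CPM with Tpm2.1. CDH5, TEK and CLDN5 had at most 8 counts in any of the 28 libraries. Of 12 leukocyte markers 3 were tested and 1, LCP1, was higher. PTPRC, which defines leukocytes, had at most 3 counts.

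The mitochondrial genome stood apart. All 13 mitochondrial mRNAs tested were lower in non-apoptotic Tpm2.1 cells, with a median of -1.49. MT-ND4 stood at 6576 and 7292 CPM in EV and 1945 and 2297 CPM with Tpm2.1 (-1.71 ± 0.13, adjusted p = 6.02e-14). Together these mRNAs took 4.22% ± 0.191 of counts in EV, 1.48% ± 0.148 in non-apoptotic and 4.24% ± 0.29 in apoptotic Tpm2.1 cells (SD, n = 2). The EV libraries and the apoptotic Tpm2.1 libraries were thus on one level and the non-apoptotic libraries on a lower one.

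RNAs of a list put together as nuclear-retained moved with them, though not every member need be confined to the nucleus. Of 9 tested 7 were lower and 1, GAS5, higher, with MALAT1 at 399 and 433 CPM in EV and 101 and 90.7 CPM with Tpm2.1 (-2.12 ± 0.093) and NEAT1 at -1.10. The apoptotic fraction averaged 193 CPM for MALAT1 and 1033 CPM for NEAT1. Both sets of transcripts are used as signs of RNA quality, and their part in the results above was not tested. Without mitochondrial genes in the fit, 6886 genes passed and the inflammatory, interferon, unfolded protein and heat shock counts were 24, 24, 17 and 13 higher. That fit only drops the rows of these genes, so it cannot say how RNA quality bears on the counts.

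Ribosomal protein genes and nuclear-encoded genes of oxidative phosphorylation depended on the fraction. Of 40 ribosomal protein genes 18 were higher and 3 lower in non-apoptotic Tpm2.1 cells, with a median of 0.14, but with both fractions at equal weight 3 were higher and 14 lower. Without EV replicate 2 fewer than 18 were higher, in a fit where fewer genes passed in all. Of 30 oxidative phosphorylation genes 8 were higher, such as UQCRB at 0.77 and ATP5F1A at 0.64, and 3 lower, against 5 and 11 with equal weight. The number higher was 5 without EV replicate 1 and 4 without EV replicate 2. Their summed level did not follow that of the mitochondrial mRNAs: it was 3515 and 3535 CPM in EV and 3779 and 3801 CPM in non-apoptotic Tpm2.1 cells.

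**Figure D3:**
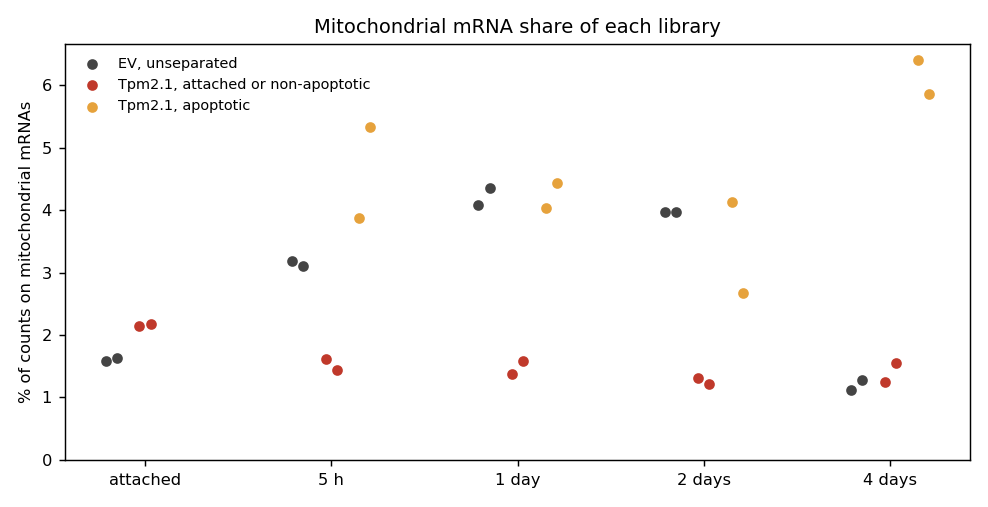
Share of each library's counts on the 13 mitochondrial mRNAs (percent), by time, with 2 points per group. At 1 day EV and apoptotic Tpm2.1 libraries lie at about 4.2% and non-apoptotic Tpm2.1 libraries at about 1.5%.

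The line difference at 1 day was then set against that of attached cells, which share no library with it. Attached cells of both lines were unseparated, while suspended Tpm2.1 cells were separated. In a change from attached cells, detachment and the separation step thus cannot be told apart. In attached cells 3516 genes (20.5%) passed. Of 2154 genes that passed in both, 1667 had the same direction and 487 the opposite one. A test of the change between both conditions (the difference at 1 day minus that in attached cells) passed for 4590 genes (26.7%), 2327 in the positive direction (13.5%) and 2263 in the negative (13.2%). After a GC correction the split was 3507 and 1886, 65.0% positive in place of 50.7%.

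Of the 27 inflammatory genes 19 were higher in attached Tpm2.1 cells and 1 was lower, against 10.4% and 10.1% of all genes. CCL2 was the lower one. The members that did not pass there were CXCL3, CCL20, CSF2, CSF3, RELB and NFKB1, at values between -0.09 and 0.37, and CXCL5 at -2.04. The list's median was 0.67 in attached cells and 1.99 at 1 day, and the change between them passed as positive for 17 members and as negative for 2. IL1B differed by 1.25 in attached cells and by 4.80 at 1 day, a change of 3.55 ± 0.13 (SE, adjusted p = 4.21e-22). MMP1 and MMP3 differed by 3.70 and 1.81 in attached cells, with changes of 2.70 and 3.78. The survival gene BCL2A1 differed by 0.10 in attached cells and changed by 2.36.

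The unfolded protein genes had a median of 0.07 in attached cells, and for 17 of 18 the change was positive. HSPA5 differed by 0.40 in attached cells and changed by 1.22 ± 0.095 (adjusted p = 2.23e-12). Sterol and fatty acid genes, by contrast, had a median of -0.44 in attached cells and of -0.45 at 1 day, and the change passed as positive for 6 and as negative for 5. For interferon genes the medians were 0.80 and 0.73. Of these 11 changed in the positive and 6 in the negative direction. Ribosomal protein genes had a median of -0.13 in attached cells, and the change was positive for 26 of 40.

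Several genes lower at 1 day had small differences in attached cells. VIPR1 differed by -0.04 in attached cells and changed by -3.39 ± 0.29 (adjusted p = 1.99e-11), INHBB by -0.33 with a change of -2.86, and BMF by 0.08 with a change of -1.45. THBS1 differed by -0.13 and changed by -1.50.

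Among the 487 genes that passed with opposite signs in both states was ITGA10. It was higher by 0.98 in attached Tpm2.1 cells and lower by 2.23 at 1 day, a change of -3.22 ± 0.33 (adjusted p = 1.39e-09). AHNAK, a giant scaffold protein, was higher by 1.11 and then lower by 0.70. The complement gene C3 was lower by 0.92 and then higher by 1.33. MALAT1 and the mitochondrial MT-ND4 were higher by 1.26 and 0.64 in attached Tpm2.1 cells, so these markers also changed sign.

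**Figure D4:**
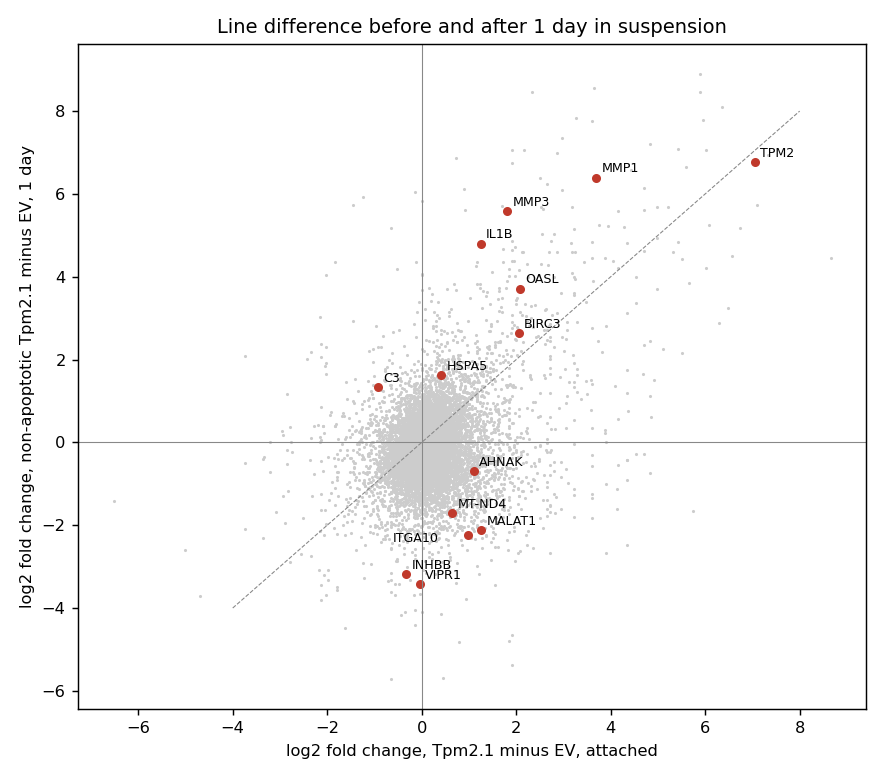
Log2 fold change of each tested gene in attached cells (x axis) and at 1 day in suspension (y axis), Tpm2.1 minus EV, with named genes in red and the line of equality dashed. IL1B, MMP1 and MMP3 lie above the line, VIPR1 and INHBB lie near 0 in attached cells and below -3 at 1 day, and ITGA10, AHNAK, MALAT1 and C3 lie in the quadrants of opposite sign.

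The neighbouring times in suspension placed the 1-day difference in sequence. The change from 5 hours to 1 day passed for 3619 genes (21.1%), 1775 positive (10.3%) and 1844 negative (10.7%). The change from 1 day to 2 days passed for 1606 genes (9.34%), 847 positive (4.93%) and 759 negative (4.42%). Which direction was more frequent depended on the scaling: the split was 739 and 890 with DESeq2 size factors, 812 and 983 in DESeq2, 646 and 797 after a GC correction and 740 and 926 without the mitochondrial genes. It was also 618 and 799 without a filter on low counts, and 893 and 1108 without the apoptotic libraries at 4 days. The total of 1606 fell to 998 without EV replicate 1 and to 872 without EV replicate 2. These changes share the libraries at 1 day, so a high or low library there moves both in opposite directions.

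HMOX1, the heme-degrading enzyme, was lower by 2.12 at 5 hours and higher by 0.86 at 1 day, a change of 2.98 ± 0.22 (SE, adjusted p = 9.52e-13), although its non-apoptotic Tpm2.1 libraries differed at 48.8 and 27.5 CPM and the call at 1 day was lost without replicate 1 of them. FZD8, a Wnt receptor, differed by -0.15 at 5 hours and 1.61 at 1 day. VIPR1, SPNS2 and INHBB, near the bottom at 1 day, differed by -0.71, -0.27 and -0.89 at 5 hours, with changes of -2.72, -2.80 and -2.30. Mitotic genes had a median of 0.24 at 5 hours, -0.09 at 1 day and 0.25 at 2 days. Of 30, 18 changed in the negative direction into 1 day and 15 in the positive direction after it. For interferon genes the change from 5 hours passed as negative for 11 of 36 and as positive for 4, and the difference of IFIT1 was 4.22 at 5 hours and 3.22 at 1 day.

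Genes of the ID family had a line difference above 0 at 1 day and near 0 or below it at 5 hours and 2 days. These genes had a difference above 0 again at 4 days. They are described because ID1 to ID4, GATA2 and ATOH8 had the 6 most negative changes from 1 day to 2 days among protein-coding genes at 10 CPM or more, and no list of BMP targets was tested. ID1, an inhibitor of helix-loop-helix transcription factors and a direct BMP target, stood at 116 and 107 CPM in EV and 450 and 362 CPM with Tpm2.1 at 1 day (1.86 ± 0.096, adjusted p = 1.89e-18). Its line difference was 0.13 at 5 hours and 0.06 at 2 days, and 2.70 at 4 days. The changes into and out of 1 day were 1.74 ± 0.13 (adjusted p = 2.12e-12) and -1.81 ± 0.13 (adjusted p = 1.22e-11). EV cells averaged 336 CPM of ID1 at 5 hours, 112 at 1 day and 212 at 2 days, so the EV level fell and rose again. Non-apoptotic Tpm2.1 cells averaged 367, 406 and 220 CPM.

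The related genes ID2, ID3 and ID4 were higher by 1.40, 1.08 and 1.31 at 1 day. Their values lay between -0.31 and 0.04 at 5 hours and between -0.78 and -0.14 at 2 days. At 4 days they were higher by 2.58, 0.58 and 0.67. In attached cells they differed by 0.59, 0.09 and 1.10, of which only ID4 passed. In EV cells they averaged 12.4, 126 and 22.6 CPM at 5 hours. At 1 day these EV levels were 3.85, 51.5 and 9.83 CPM, and at 2 days 8.28, 101 and 31.2 CPM. Non-apoptotic Tpm2.1 cells averaged 12.8, 109 and 18.3 CPM at 5 hours. Their levels were 10.1, 109 and 25.0 CPM at 1 day and 7.5, 58.6 and 19.9 CPM at 2 days. GATA2, a transcription factor, differed by 0.09, 1.35 and -0.41 at 5 hours, 1 day and 2 days, and by 0.69 at 4 days. It averaged 37.1, 12.3 and 27.8 CPM in EV cells and 39.4, 31.5 and 20.9 CPM in non-apoptotic Tpm2.1 cells. ATOH8, another helix-loop-helix factor, was lower by 1.55 at 5 hours and by 1.91 at 2 days and did not pass at 1 day (0.25, adjusted p = 0.326). SMAD7, an inhibitor of TGF-beta and BMP signalling, went from -0.40 at 5 hours to 0.56 at 1 day and back to -0.12 by 2 days, changes of 0.96 (adjusted p = 0.000299) and -0.68 (adjusted p = 0.0267). Its call at 1 day was lost without EV replicate 2 (0.38). Other ligands and inhibitors of these pathways differed otherwise. BMP2 was higher at each of these times (1.11, 1.71 and 2.25), BMP4 went from 0.52 at 5 hours to -1.05 at 1 day and -1.27 at 2 days, and the antagonists NOG and SMAD6 were lower by 1.39 and 1.49 at 1 day. INHBA, the activin beta A chain, was higher by 1.51 while INHBB was lower.

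**Figure D5:**
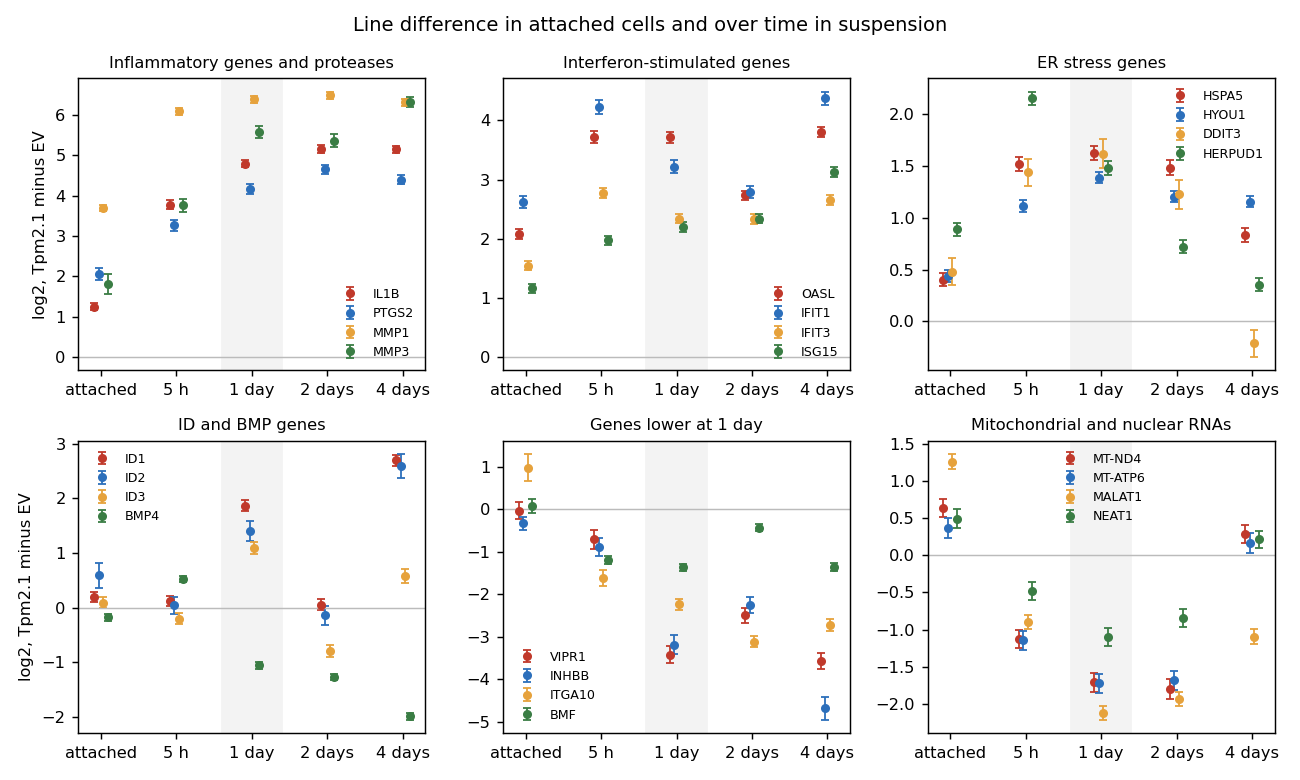
Line difference (log2, Tpm2.1 minus EV, with SE bars) in attached cells and at 5 hours, 1, 2 and 4 days in suspension for 24 genes in 6 panels, the 1-day column shaded; suspended Tpm2.1 cells are the non-apoptotic fraction. ID1, ID2 and ID3 lie near or below 0 at 5 hours and 2 days, above 1 at 1 day and above 0 at 4 days. IL1B, PTGS2, MMP1 and MMP3 are above 0 in every column.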

How the data were processed

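RNA of MDA-MB-231 cells was taken with an RNeasy kit and selected with poly-T beads, and libraries were primed with random hexamers, per the labels' protocols. As deposited by the authors, one table holds counts for 58735 genes in 28 libraries and another the FPKM values. The build hg38 and the tool DESeq2 come from the submitters' processing notes; aligner and counter were not given in the sources used here. FPKM as deposited by the authors equalled count per length per scaled total to within 5.2e-15.

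The counts went into edgeR 4.0.16 (R 4.3.3) with TMM scaling, the filterByExpr filter and its quasi-likelihood F test. One mean was fitted for each of 14 groups of 2 libraries, so that all 28 libraries share 1 estimate of the spread (14 residual degrees of freedom, prior 23, common coefficient of variation 4.77%). The SE is the absolute log2 fold change over the square root of F. Replicates differed by more than sampling noise, with a chi-square per gene of 1.82 in EV and 4.08 in Tpm2.1 cells. The rule for naming genes took the genes of the title and TPM2, the cadherins CDH1 and CDH2, the 12 protein-coding genes at either end with at least 10 CPM in a group, up to 4 of each of 43 lists by p, the 6 at either end of each change, 3 noncoding genes at either end and genes at most 0.5 CPM in one group and at least 5 in the other. Not all of them are named, and further list members, markers and genes of opposite sign were chosen after their values were seen. Members and lists were chosen with earlier results of these data known, so lists are described by counts and medians. As alternatives, the counts were fitted with DESeq2 1.42.0, with its size factors, without a filter, with protein-coding genes alone, with the 4 libraries alone, without the apoptotic libraries at 4 days, with a replicate block, with each library left out, with a GC correction and in a test against a fold change of 1.5. Leaving out mitochondrial genes and giving both fractions equal weight were chosen after seeing the data. On simulated data with 16418 genes tested, 74%, 81% and 98% of genes changed 1.5, 2 and 4-fold at 1 day were called and 4.02% of calls were false. The simulation changed only 50, 100 and 50 genes at these folds and held all others equal between groups. Its replicates were drawn as independent, so its share of false calls need not apply to these data. Some genes that met these rules are not reported here.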

Additional observations from a re-analysis of the deposited data

Results flagged for a closer look

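By a test of the difference, the line difference itself differed between attached cells and 1 day for 4590 genes. It did so for 3619 between 5 hours and 1 day and for 1606 between 1 day and 2 days. Of these, only the change from attached cells also spans the separation step. Among protein-coding genes with at least 10 CPM that passed with opposite signs in attached cells and at 1 day, each past 1.5-fold, the change was positive for C3 (2.25). It was negative for ITGA10 (-3.22), MT-ND4 (-2.35), CNTNAP3 (-2.21), ADAMTS15 (-1.81), AHNAK (-1.81), KCNN4 (-1.74), IQSEC2 (-1.58), SOBP (-1.54) and PGPEP1 (-1.44). XAGE1B, a cancer-testis gene with near-identical copies, changed by -4.32, but stood at 52.7 and 8.29 CPM in the EV libraries, and its line difference at 1 day was -1.82, or 0.00 without EV replicate 1.

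Genes of the ID family differed between 1 day and the times on either side. From 5 hours to 1 day the line difference changed by 1.74 for ID1, 1.36 for ID2, 1.29 for ID3 and 1.62 for ID4, and from 1 day to 2 days by -1.81, -1.54, -1.87 and -1.95. Both changes share the libraries at 1 day. At 4 days the line difference was above 0 again for ID1, ID2, ID3 and ID4, at 2.70, 2.58, 0.58 and 0.67. EV cells at 1 day held ID1 at 116 and 107 CPM and non-apoptotic Tpm2.1 cells at 450 and 362 CPM, and the apoptotic fraction averaged 381 CPM. At 5 hours and 2 days ID1 averaged 336 and 212 CPM in EV cells and 367 and 220 CPM in non-apoptotic Tpm2.1 cells.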

How the results depend on the processing

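The 6880 genes that passed at 1 day were 6466 with DESeq2 and 5032 to 5477 with a library left out (higher 2527 to 2782, lower 2505 to 2702). A test against a fold change of 1.5 gave 1034 genes, 535 higher and 499 lower, a stricter question. After the GC correction the positive changes from attached cells were 3507; the cause was not tested. The change to 2 days fell with a library left out to between 872 and 1130 genes (441 to 587 positive, 431 to 554 negative), 998 (533 and 465) without EV replicate 1 and 872 (441 and 431) without EV replicate 2; such fits leave a group with 1 library, assumed to vary like the others. With the replicate block, 6841 genes passed at 1 day (correlation of same-numbered deviations across genes -7.32e-05 between EV and non-apoptotic Tpm2.1 libraries). Between the Tpm2.1 fractions it was 0.053 (0.0552 over 9918 genes at 10 CPM or more), but HSPA1A (84.77 and 47.95 CPM, apoptotic 58.75 and 34.97) and HMOX1 (48.79 and 27.45, apoptotic 39.95 and 21.26) were higher in replicate 1 of both. Fits with both fractions at equal weight count 4 separate Tpm2.1 libraries and do not use these numbers. The AKT1 log2 fold change at 1 day was near 0 with a varying sign, 0.001049 with DESeq2 size factors, 0.0006443 with DESeq2, 0.02815 without a filter, 0.009248 with the 4 libraries alone, 0.08981 after the GC correction and -0.05385 to 0.03799 with a library left out. So was the IFIT5 log2 fold change at 1 day, -0.01666 among protein-coding genes, -0.04881 with both fractions and -0.1265 to 0.1475 with a library left out. The causes were not tested. With 2 libraries per group, totals of 13043529 to 27416335 counts limit genes of low count.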

Other observations

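The remaining gene lists gave counts on both sides at 1 day, beside 19.7% of all genes tested higher and 20.3% lower. Genes of NRF2 and ferritin, which serve antioxidant defence and iron storage, gave 3 higher and 9 lower of 16 tested, with a median of -0.21. Matrix and matricellular genes gave 8 higher and 9 lower of 28, and genes of the TGF-beta, activin and BMP pathways 11 higher and 6 lower of 23. Feedback genes of ERK signalling gave 9 higher and 2 lower of 15, and mesenchymal transition genes 6 higher and 3 lower of 13. Targets of SRF, which follow actin assembly, gave 4 higher and 7 lower of 20, and targets of FOXO factors, which AKT restrains, 6 higher and 5 lower of 22. Glycolysis and hypoxia genes gave 7 higher and 8 lower of 32, and for 17 of them the line difference changed in the positive direction from 1 day to 2 days. Autophagy and lysosome genes gave 5 higher and 4 lower of 26, and cyclin-dependent kinase inhibitors 1 higher and 2 lower of 5.

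Of 10 marker genes of MDA-MB-231 cells 5 were higher and 2 lower, of 10 luminal epithelial markers tested 4 were higher and 1 lower, and of 6 fibroblast markers tested 2 were higher and 3 lower. Without EV replicate 2 the number of fibroblast markers that were higher was 0.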
